A study of Mus musculus with 8 samples.

Results

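The regions described here carried 5-hydroxymethylcytosine (5hmC) in mouse induced pluripotent stem cells (iPSC) and on every sampled day of reprogramming with both methods, while none was called in the starting fibroblasts. Of 222732 regions marked in the series, 2274 fitted this description, which is 1.02% of them. Members were chosen by presence and absence in 8 lists of 5hmC peaks. Peaks of all lists that overlapped or touched were merged into regions, and a region counted as present in a list when a peak of that list shared at least 1 bp with it. A member was absent in the fibroblast list and present in the iPSC list and in all 6 lists of intermediates. Presence in these lists is therefore given by the choice and is no result.

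The intermediates had been induced with OySyNyK and sampled at D1, D3 and D5, or with OSNK and sampled at D1, D3 and D5. OSNK is known from the study as the factors Oct4, Sox2, Nanog and Klf4, and OySyNyK as the same set with a YAP transactivation domain joined to Oct4, Sox2 and Nanog. The iPSC sample is titled after the engineered factors, and the iPSC were kept on mitomycin C-treated fibroblast feeder cells. Mouse embryonic fibroblasts (MEF) were the baseline. Per the labels' protocols the fibroblasts were OG2-MEFs, and the medium for making iPSC held vitamin C and leukemia inhibitory factor; no age is given. Each group was 1 library with no replicate, so no difference between groups can be set against the spread between cultures, and no test across samples was run. The methods share 3 days, and an exact permutation test over 3 day pairs cannot give a two-sided p below 0.25. Intervals below are exact binomial 95% intervals over regions and cover counting error only, since neighbouring regions are not independent.

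5hmC is made from 5-methylcytosine by the TET enzymes. It is known as an intermediate of DNA demethylation and as a lasting mark of enhancers and gene bodies, and its pattern differs between fibroblasts and pluripotent cells. In reprogramming, TET activity is known to accompany the activation of pluripotency genes and the loss of fibroblast identity. Vitamin C is known to act on TET enzymes as a cofactor. The peaks were not assigned to genes and no sequences are shown, because the mouse assembly of the lists is not known and may differ from that of the annotation at hand.

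The 8 lists held 54938 to 116302 peaks, and the iPSC list was the shortest. Each peak carries a score from the authors' peak caller, which MACS gives as log10 of the p-value multiplied by -10. The lowest score was 50 in every list, corresponding to a p-value of 1e-05. Median scores lay between 71.0 in iPSC and 105 at OSNK D1, and median peak widths between 641 bp in iPSC and 911 bp at OSNK D3. Sequencing depth is unknown, so a missing peak can reflect depth or enrichment as well as missing 5hmC. A score is used here only to rank a peak within its own list. A peak's percentile is that rank, from the lowest score up, as a share of the list's peaks, with tied peaks given their mean rank.

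The members were a small fraction of the regions with a called peak in iPSC and none in MEF. In all, 40966 regions were present in iPSC and absent in MEF, and the members were 5.55% of these (5.33 to 5.78). At least 1 of the D1 lists held 7454 of the 40966, which is 18.2% (17.8 to 18.6). Both D1 lists held 3448, and 2274 of these, 66.0% (64.3 to 67.5), were present in every later intermediate list as well. Of 28492 regions absent in MEF and present in both D1 lists, 12.1% were present in iPSC (11.7 to 12.5). Of all 160128 regions absent in MEF the share was 25.6% (25.4 to 25.8). The latter include the 24202 regions found in iPSC alone, which by definition are in no D1 list. The 25.6% is therefore not on equal terms with the 12.1%. Of the 28492 regions, 25044 were absent in iPSC, and 6075 of these were present in all 6 intermediates, which is 24.3% (23.7 to 24.8). These 6075 intermediate-only regions meet the same conditions as the members except for iPSC, and serve below as the closest comparison. The second comparison is with the 5750 regions present in all 8 lists.

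Regions that missed membership by 1 list were mostly absent on D1. Of the regions absent in MEF and present in iPSC and exactly 5 intermediate lists, 349 lacked OySyNyK D1, 69 lacked OySyNyK D3 and 287 lacked OySyNyK D5. With OSNK, 742 lacked D1, 125 lacked D3 and 114 lacked D5. OSNK D1 was thus the list most often missing, although it was the longest list of the series. Gain after D1 in all 4 later lists, with both D1 lists empty, was seen for 578 regions.

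Members lay close to the score threshold in at least 1 list in many cases. The lowest of a member's 7 scores was under 60 in 850 members, 37.4% (35.4 to 39.4). The iPSC list held more of these weak peaks than any other list, with 477 members under 60, against 62 to 177 members in each of the intermediate lists. Low scores were common in the iPSC list as a whole, and members were not weaker there. The lower quartile of the highest iPSC score was 58.2 over all 52626 regions with an iPSC peak and 62.1 over members. Just inside the threshold stood chr2:32170148-32171248 with a score of 50.0 at OSNK D3, chr9:66560105-66561491 with 50.01 in iPSC and chr10:79492759-79494758 with 50.01 at OSNK D1. The other 2 of the 5 weakest, chr7:142268750-142270176 and chr2:171464049-171464865, both had 50.02 in iPSC. Just outside stood regions in all 8 lists whose MEF peak barely passed. The lowest MEF scores among them were 50.0 at chr19:40535159-40536438, 50.01 at chr15:76055039-76058692 and 50.02 at chr1:154424935-154427587. In 335 of the 5750 such regions, or 5.83%, the MEF score was under 60. The same rule found 488 regions among peaks with scores of at least 100, 1262 with equal numbers of the best peaks per list, and 679 when a list had to cover at least 50% of a region.

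Member regions were wide and often made of several overlapping peaks from different lists. Their width ranged from 567 bp to 11532 bp with a median of 1669.5 bp, against 1252 bp for the intermediate-only regions and 2207 bp for the regions in all 8 lists. Merging more lists widens a region, so widths of classes present in different numbers of lists are not on equal terms. In 1785 members, 78.5% (76.7 to 80.2), at least 1 bp was shared by all 7 lists. In 1596, 70.2% (68.3 to 72.1), the shared bases came to 300 bp or more. Over all members the shared bases, which need not adjoin, had a median of 444 bp. In the remaining members the lists marked neighbouring stretches of a merged region. An iPSC peak was overlapped directly by a peak of each intermediate in 1836 members, 80.7% (79.1 to 82.3), counting all iPSC peaks of a region together.

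The strongest peaks of iPSC and of the intermediates lie in the same merged region by the choice of members, which limits their distance. Distances were taken for members only, so how far the choice sets them was not tested. The distance between the centres of the highest-scoring peaks had a median of 213.75 bp at OySyNyK D1, 176 bp at D3 and 129.5 bp at D5. With OSNK it was 257.75 bp at D1, 246.75 bp at D3 and 171.5 bp at D5. These centres lay nearest to iPSC at D5 with both methods. The bases that iPSC peaks covered in members were covered to 62.0%, 77.4% and 80.4% at D1, D3 and D5 with OySyNyK. With OSNK they were covered to 54.3%, 78.9% and 73.3%. In other regions absent in MEF and present in both iPSC and the list concerned, the shares were 57.6%, 70.4% and 78.8% with OySyNyK and 54.6%, 77.3% and 69.5% with OSNK. The rise after D1 was therefore also seen outside the members, among regions that differ from list to list.

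Member peaks ranked above the median of their lists at every stage, but members were chosen by presence in these same lists. How far that choice favours high ranks was not tested. The median percentile of a member's highest-scoring peak was 73.3, 85.3 and 80.7 over the days of OySyNyK and 62.1, 78.5 and 85.2 over those of OSNK. In iPSC it was 60.6. A region with several peaks is given by its best, which raises its percentile, and lists of different length do not share a scale, so these values describe ranks within each list and not a change. Regions in all 8 lists ranked higher in each intermediate, with medians of 90.5, 90.8 and 87.4 over the days of OySyNyK and 88.5, 87.3 and 87.4 over those of OSNK, and stood at 64.4 in iPSC. Intermediate-only regions had 66.4, 75.0 and 59.2 with OySyNyK and 65.1, 75.3 and 76.2 with OSNK. Members thus lay above the intermediate-only regions at each day of OySyNyK and at D3 and D5 of OSNK, and below them at OSNK D1. The largest of these gaps was at OySyNyK D5. No test was made of these ranks.

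**Figure D1:**
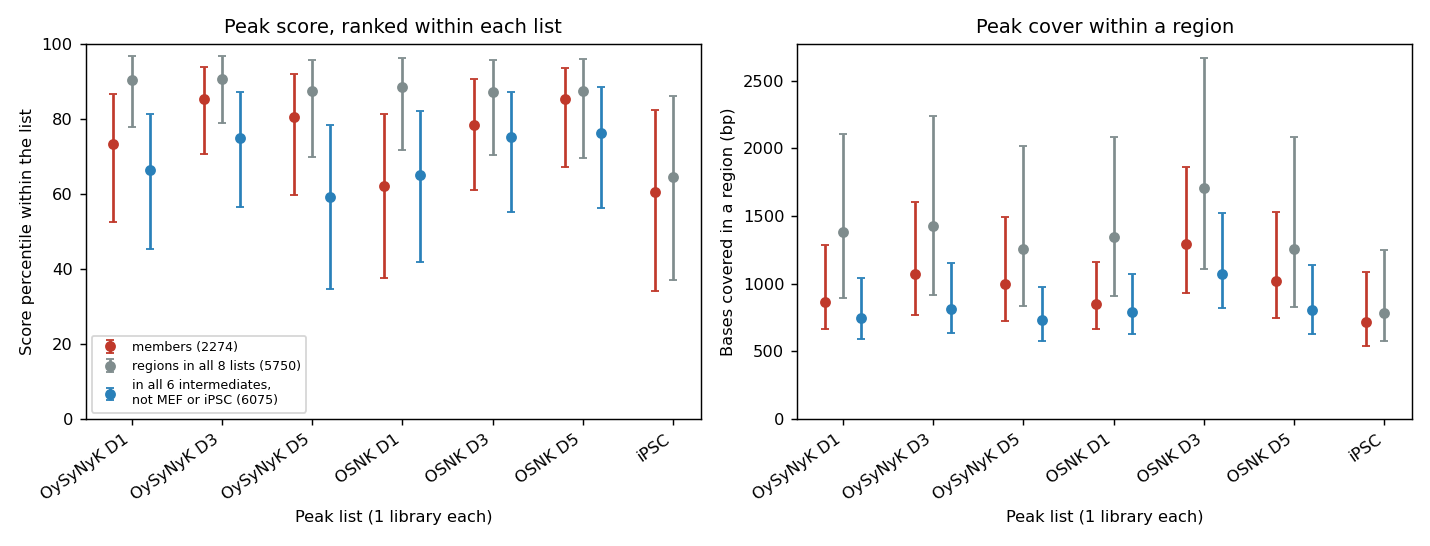
Score percentile within each list (left) and bases covered per region in bp (right) for members, regions in all 8 lists and intermediate-only regions; points are medians over regions and bars run between the 25th and 75th percentiles, with 1 library per list. Member medians (red) run from 60.6 in iPSC to 85.3 at OySyNyK D3 in percentile, and from 718 bp in iPSC to 1294 bp at OSNK D3 in cover.

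Members that ranked high in all 7 lists were a minority. The same counts were not made for other classes, so they do not set members against other regions. In 589 members, 25.9% (24.1 to 27.8), the percentile was at least 50 in all 7 lists, and in 17 it was at least 90 in all 7. A score of at least 100 in all 7 lists was found for 295 members, 12.97% (11.6 to 14.4). The lowest percentile of a member fell in iPSC for 800 members and at OSNK D1 for 634, and least often, for 73, at OySyNyK D3. The highest percentile fell at OSNK D5 for 539 members and at OySyNyK D3 for 518, and at OSNK D1 for 118.

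The 10 members with the highest smallest percentile include 3 on chromosome 17, 2 on chromosome 11 and 2 on chromosome 1. At chr3:108197617-108203093, 5477 bp wide, the highest score was 741, 752 and 531 over the days of OySyNyK, 688, 481 and 478 at those of OSNK, and 636 in iPSC. This member ranked at the 98.2 percentile or above in all 7 lists. Its cover with OySyNyK was 3896, 4064 and 4552 bp over the days, with OSNK 1435, 3224 and 2238 bp, and 4768 bp in iPSC. OySyNyK cover was thus nearer to the iPSC cover than OSNK cover on each day, and the nearest MEF peak lay 1624 bp away.

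The widest member, chr11:120667251-120678782, was also the one with the most iPSC-covered bases, 10275 bp of its 11532 bp. Cover was 3731, 7880 and 9619 bp over the days of OySyNyK and 2189, 7862 and 7659 bp over those of OSNK. It widened from D1 to D3 with both methods. Its scores were 524, 715 and 396 with OySyNyK, 535, 525 and 298 with OSNK, and 296 in iPSC. The nearest MEF peak lay 31605 bp away, and 2125 bp were shared by all 7 lists.

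On chromosome 17, chr17:28193966-28199509 had scores of 451, 934 and 821 over the days of OySyNyK, 475, 1141 and 974 over those of OSNK, and 417 in iPSC. All 7 lists shared 3081 bp there in total, the most of any member, and the region lies in a 1-Mb window rich in members. At chr17:34746814-34753416 the scores were 593, 449 and 250 with OySyNyK, 487, 433 and 430 with OSNK, and 162 in iPSC. At chr17:5386126-5388249 they were 316, 328 and 212 with OySyNyK, 540, 358 and 318 with OSNK, and 184 in iPSC. Each of the 7 lists had a single peak at chr17:5386126-5388249.

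The remaining 5 of the 10 were single or paired peaks in most lists. At chr1:95584566-95586168 the scores were 420, 397 and 275 with OySyNyK, 564, 423 and 434 with OSNK, and 213 in iPSC, and a MEF peak lay 789 bp away. At chr11:77670686-77675796 they were 673, 545.5 and 235 with OySyNyK, 1072, 502 and 375 with OSNK, and 210 in iPSC. Both had the highest of their 7 scores at OSNK D1. At chr4:140604041-140605570 the scores were 410, 357 and 257 with OySyNyK, 582, 331 and 300.2 with OSNK, and 168 in iPSC. At chr1:138110657-138114273 they were 471, 385 and 461 with OySyNyK, 403, 590 and 630.2 with OSNK, and 183 in iPSC. In chr8:113260101-113263730 OySyNyK scored 1027, 924 and 406, OSNK scored 397, 504 and 575, and iPSC scored 196. The iPSC score was the lowest of the 7 in 9 of these 10 members, the exception being chr3:108197617-108203093, and the iPSC list had the lowest median score of all lists.

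**Figure D2:**
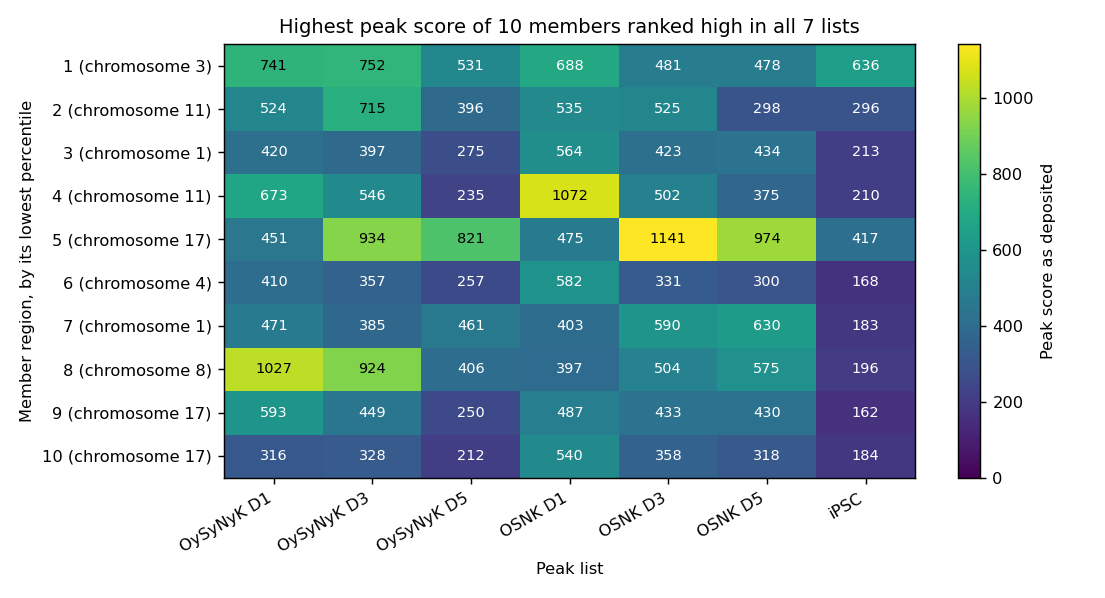
Highest peak score, as deposited, in each of 7 lists (columns) for the 10 members with the highest smallest within-list percentile (rows), with the value in each cell and 1 library per list. Scores lie between 162 and 1141, and a colour compares lists only as far as their peak callings are alike.

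In the other 4 members with the most iPSC cover, the D5 lists covered more bases than the D1 lists with both methods. At chr12:114145855-114151083 the iPSC peak covered all 5229 bp with a score of 931, the highest iPSC score of any member. Its scores over the days were 325, 504 and 340.2 with OySyNyK and 58.7, 101 and 252 with OSNK. OySyNyK covered 2079, 1807 and 2791 bp of it, against 698, 780 and 2012 bp with OSNK. A MEF peak lay 395 bp from its edge. The region chr11:70416797-70423347 had 6347 bp of iPSC cover, with 4446, 5144 and 5740 bp over the days of OySyNyK and 727, 4774 and 3927 bp over those of OSNK. Its scores did not follow its cover, at 333 at D5 and 394 at D1 of OySyNyK. At chr17:31982367-31988575 iPSC covered 6040 bp, OySyNyK 641, 4826 and 5240 bp and OSNK 866, 3042 and 4453 bp, and the scores were likewise lower at D5 than at D1, at 132 and 265 with OySyNyK and 201 and 264 with OSNK. At chr9:108472988-108480365 iPSC covered 5597 bp, OySyNyK 2334, 7131 and 6316 bp and OSNK 2343, 6976 and 5975 bp. In these last 3, cover at D3 exceeded that at D1 with both methods.

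The other 3 of the 5 widest members had no base in common to all 7 lists. At chr8:46030774-46039166 iPSC covered 3551 bp of 8393 bp, at chr15:79820768-79829107 it covered 2201 bp of 8340 bp, and at chr2:165642742-165650025 it covered 1009 bp of 7284 bp. At OSNK D3, where peaks were widest, 7022, 8243 and 7245 bp of these were covered. In each of the 3, OSNK D3 covered more bases than iPSC.

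A larger share of members than of all regions in both lists was covered more widely at D5 than at D1. Members were chosen by presence in the D1, D5 and iPSC lists and by absence in MEF. The background regions were not chosen by iPSC or MEF. How far the choice sets the difference was not tested. With OySyNyK, 1478 members had more bases covered at D5 than at D1, 65.0%, against 47.0% of all 38263 regions present in both lists. With OSNK, 1563 members had more at D5 than at D1, 68.7%, against 40.3% of all 50423 regions present in both lists. For intermediate-only regions the shares were 48.1% with OySyNyK and 53.2% with OSNK, and for regions in all 8 lists 45.0% with OySyNyK and 44.4% with OSNK. Median cover of members was 867, 1075 and 1001 bp over the days of OySyNyK and 848, 1294 and 1020 bp over those of OSNK. In iPSC it was 718 bp. iPSC cover exceeded cover at OySyNyK D5 in 537 members, 23.6% against 33.3% of all regions in both lists, and cover at OSNK D5 in 610 members, 26.8% against 33.9%. The iPSC list had the narrowest peaks of the series.

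Between the methods, members leaned towards OySyNyK at D1 relative to other regions. At D1, 1237 members had more bases covered with OySyNyK than with OSNK, 54.4%, and 1035 had fewer. Over all 68571 regions present in both lists the share was 38.4%. At D3 OySyNyK cover was lower in 1638 members, 72.03%, against 80.8% of all 50959 such regions, and the OSNK D3 list had the widest peaks. It was higher in 635 members, 27.9%. At D5 it was higher in 1112 members, 48.9%, against 47.6% of all 39607 such regions. The member share at D5 is close to that background. The shares of intermediate-only regions with higher OySyNyK cover were 43.0%, 18.04% and 39.4% over the days, and those of regions in all 8 lists 49.0%, 24.8% and 50.2%. Whether peak width, list length or 5hmC sets these shares was not tested.

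The order of strength among members was more alike between neighbouring days of a method than between any day and iPSC. Correlations were taken over the 2274 members, which share their libraries and are not replicates. Spearman's rho of the scores was 0.59 between D1 and D3 and 0.59 between D3 and D5 with OySyNyK, and 0.57 and 0.66 with OSNK. Between the methods it was 0.48 at D1, 0.41 at D3 and 0.41 at D5. Against iPSC it was 0.13, 0.19 and 0.28 over the days of OySyNyK and -0.04, 0.05 and 0.10 over those of OSNK. A rho this weak is no finding in itself. For regions in all 8 lists the values against iPSC were 0.08, 0.24 and 0.32 with OySyNyK and -0.04, 0.07 and 0.15 with OSNK. Bases covered, which also follow the width of a region, gave 0.42, 0.48 and 0.53 against iPSC over the days of OySyNyK and 0.24, 0.34 and 0.38 over those of OSNK.

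The same scores can be given by the members' iPSC score. The 569 members with the highest iPSC scores, from 113 to 931, had median percentiles of 77.8, 89.7 and 89.8 over the days of OySyNyK, and the 569 with the lowest, from 50.01 to 62.1, had 68.8, 82.0 and 74.2. With OSNK the medians were 58.1, 80.2 and 88.0 in the highest and 64.3, 77.1 and 83.2 in the lowest. Highest-scoring members were wider, with a median of 2079 bp against 1453 bp. They ranked above the lowest-scoring ones in every list except OSNK D1.

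**Figure D3:**
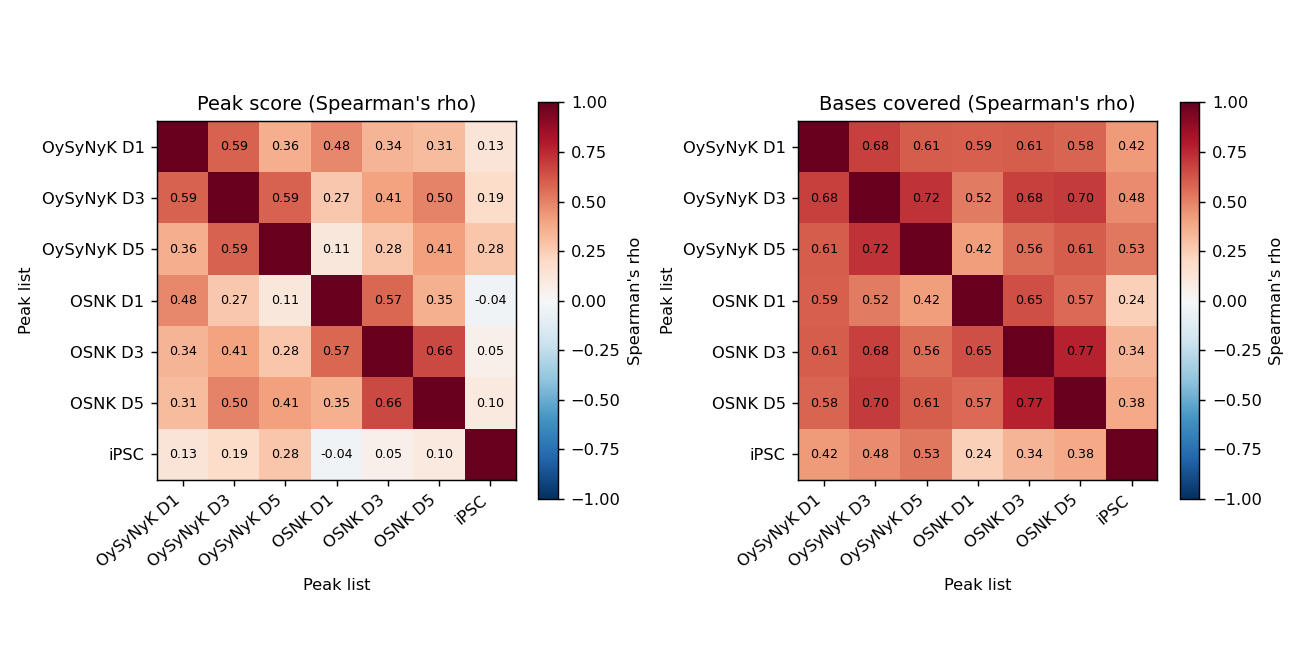
Spearman's rho over the 2274 members between each pair of the 7 lists, for peak score (left) and bases covered per region (right). For scores rho is at most 0.28 against iPSC, reached at OySyNyK D5, and 0.57 to 0.66 between neighbouring days of a method.

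The surroundings of members were measured without the regions themselves, from 1 kb to 5 kb beyond each edge, which the choice of members did not use. iPSC peaks covered 9.25% of these flanks around members and 4.19% around intermediate-only regions, and the value was higher around members on 19 of 19 autosomes. MEF peaks covered 8.01% around members and 7.97% around intermediate-only regions, higher around members on 8 of 19 autosomes. At D1 the flanks of members and of intermediate-only regions were covered to 12.9% and 11.8% with OySyNyK, higher on 14 of 19 autosomes, and to 12.7% and 12.9% with OSNK, higher on 9 of 19. At D3 they were covered to 15.4% and 12.6% with OySyNyK, higher on 19 of 19, and to 18.3% and 16.7% with OSNK, higher on 15 of 19. At D5 the values were 13.3% and 9.74% with OySyNyK, higher on 18 of 19, and 14.2% and 12.5% with OSNK, higher on 19 of 19. The flanks of both classes were thus close in MEF and at OSNK D1, and those of members were covered more in iPSC and at D5 of both methods. Autosomes of 1 library are not replicates of a condition. With scores of at least 100 the ratio of iPSC flank cover, members to intermediate-only regions, was 3.65 instead of 2.21. At that setting 291 of the 488 regions that fitted the rule overlapped a member. How far the clustering of iPSC peaks along the genome sets the iPSC value was not tested.

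Flanks of members were denser in every list than the genome as a whole. Over the sequence spanned by peaks, iPSC peaks covered 1.56%, intermediate lists 2.18% to 3.72% and MEF peaks 2.39%. Flanks of the 24202 regions found in iPSC alone were covered to 6.31% in iPSC, 4.67% to 6.11% in the intermediates and 3.94% in MEF, lower than around members on 19 of 19 autosomes in all 8 lists. Flanks of the 578 regions gained after D1 had 9.02% in iPSC and 6.88% in MEF, and members were higher there on 9 and 13 of 19 autosomes. At D5 they had 12.8% with OySyNyK and 14.8% with OSNK, and members were higher on 10 and 7 of 19. Flanks of regions in all 8 lists had 9.08% in iPSC and 13.8% in MEF, and MEF cover was lower around members on 19 of 19 autosomes. At D5 they had 15.7% with OySyNyK and 17.0% with OSNK, and members were higher on 3 and 0 of 19. The higher D5 cover around members thus held against intermediate-only regions and regions in iPSC alone, was turned round against regions in all 8 lists, and was split over the autosomes against regions gained after D1.

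**Figure D4:**
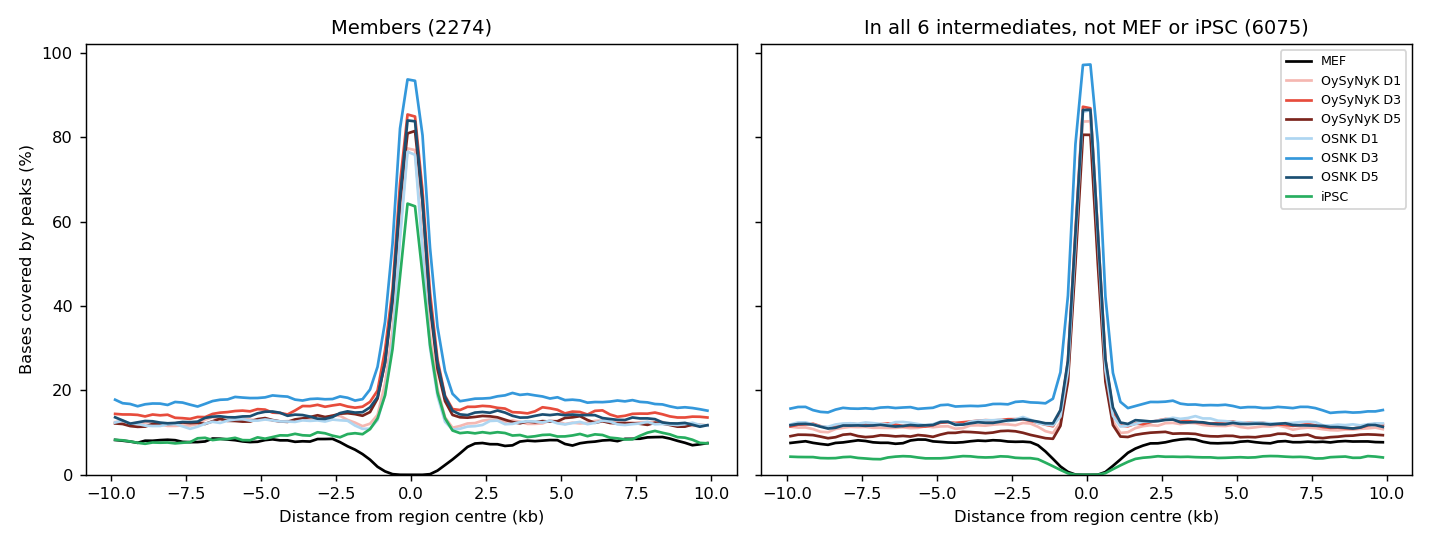
Share of bases covered by peaks of each of the 8 lists (%) against distance from the region centre in kb, in steps of 250 bp, for members (left) and intermediate-only regions (right). The peak at the centre and its absence in MEF, and in iPSC on the right, follow from the choice of regions; away from the centre iPSC (green) runs near MEF (black) around members and below it around intermediate-only regions.

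MEF peaks were often near, although none was called within the members. The nearest MEF peak lay between 17 bp and 170296 bp from a member's edge, with a median of 5238.5 bp. It was within 1 kb for 357 members, 15.7% (14.2 to 17.3), within 5 kb for 1100, 48.4% (46.3 to 50.4), and within 10 kb for 1549, 68.1% (66.2 to 70.0). Intermediate-only regions had a median distance of 4969 bp and 16.7% within 1 kb. Regions gained after D1 had 6068.5 bp and 11.2%, and regions in iPSC alone 11181 bp and 7.21%. Members thus lay about as near to MEF peaks as intermediate-only regions and nearer than regions found in iPSC alone. Wider regions reach closer to their neighbours, and regions in iPSC alone had a median width of 599 bp.

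The members were spread over 20 chromosomes in shares mostly close to those of all iPSC regions absent in MEF. Chromosome 11 held the most, 210 or 9.23% (8.08 to 10.5), followed by chromosome 2 with 190, 8.36% (7.25 to 9.57), and chromosome 5 with 183, 8.05% (6.96 to 9.24). In the same order they held 6.53%, 7.89% and 6.47% of all regions in the series. Of iPSC regions absent in MEF they held 8.15%, 8.61% and 8.08%. Chromosomes 13 and 16 held 35 members each, 1.54% (1.07 to 2.13), against 4.71% and 3.48% of all regions in the series. Among all regions of iPSC absent in MEF these chromosomes held 1.58% and 1.08%, close to the member shares. Among intermediate-only regions they held 5.89% and 4.51%. With scores of at least 100 the shares there were 0.410% and 0.820% of the 488 regions that fitted the rule, of which 291 overlapped a member. The X chromosome held 2 members, 0.0880% (0.0107 to 0.317), against 0.810% of all regions. Among iPSC regions absent in MEF the X share was 0.225%, within the member interval, and among intermediate-only regions it was 0.214%.

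Chromosomes 12 and 3 stood apart from the iPSC list, in opposite directions, chromosome 3 only narrowly. They were picked from 20 chromosomes, and the intervals make no allowance for that. Chromosome 12 held 134 members, 5.89% (4.96 to 6.94), against 8.28% of all regions of iPSC absent in MEF. It held 4.87% of all regions and 2.98% of intermediate-only regions. Of every 100 such iPSC regions on chromosome 12, 3.95 were members (3.32 to 4.66), whereas 5.55% were members over all chromosomes. With scores of at least 100, chromosome 12 held 8.40% of the regions that fitted the rule. The iPSC share was not recomputed at that setting. The other autosomes had between 4.80% on chromosome 6 and 7.92% on chromosome 16 (5.58 to 10.8). Chromosome 3 also held 134 members, 5.89% (4.96 to 6.94), against 4.85% of all regions of iPSC absent in MEF. It held 5.78% of all regions, close to the member share, and 5.42% of intermediate-only regions. Of every 100 iPSC regions absent in MEF on chromosome 3, 6.74 were members (5.68 to 7.93).

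**Figure D5:**
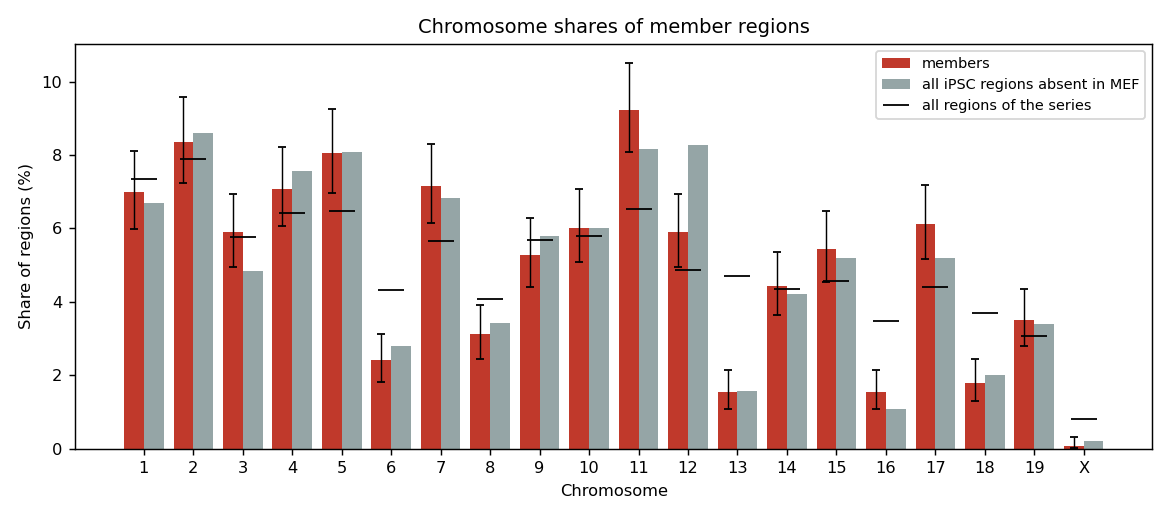
Share of regions on each chromosome (%) for members (red, with exact binomial 95% intervals), all iPSC regions absent in MEF (grey) and all regions of the series (black dashes). Members follow the iPSC regions on chromosomes 13 and 16, at 1.54% each. They lie below them on chromosome 12, at 5.89% against 8.28%, and above them on chromosome 3, at 5.89% against 4.85%. The share of all regions on chromosome 3 was 5.78%.

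Members occurred singly and in groups. The distance to the next member had a median of 96443 bp; 314 members, 13.8% (12.4 to 15.3), had another within 10 kb and 1155, 50.8% (48.7 to 52.9), within 100 kb. Of 2457 windows of 1 Mb with any region, 940 held a member and 413 of these held exactly 1. A total of 119 windows held 5 or more, with 776 members among them. The window with the most was on chromosome 10 from 79000001 to 80000000, with 15 members among 217 regions, of which 121 were present in iPSC and 68 in MEF. On chromosome 17 the windows from 29000001 to 30000000 and from 28000001 to 29000000 held 14 and 11 members, among 117 and 115 regions present in iPSC. On chromosome 12 the adjoining windows from 112000001 to 113000000 and from 113000001 to 114000000 held 11 each, among 120 and 150 iPSC regions. Windows with 11 members also lay on chromosome 4 from 140000001 to 141000000, with 136 iPSC regions, and on chromosome 15 from 12000001 to 13000000, with 73. These windows, picked by their member counts, held 41 to 91 MEF regions and 59 to 108 iPSC regions absent in MEF each. How far the density of regions sets their member counts was not tested.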

How the data were processed

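5hmC was captured by chemical labelling in 8 libraries, 1 per group. Samples were grouped by their titles, and D is read as day. The authors deposited 1 peak list per library with a score for each peak. Per the submitters' processing notes the tools were Bowtie and MACS; for versions, settings and control libraries, nothing is given in the sources used here. The builds named there, hg18 and NCBI36, are human. Peaks extended beyond the last gene of mouse GRCm38 on 10 of 20 chromosomes. Peaks can lie beyond the last gene, so this does not by itself settle the build. Coordinates are those of the lists' own mouse assembly, which is not known here, and are counted from 1. No gene or sequence was assigned.

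All 684512 peaks were merged into regions with Python 3.11.15 (pandas 2.3.3, numpy 2.4.6), and intervals came from scipy 1.17.1. Bedtools 2.31.1 gave the same 222732 regions and 2274 members, and the merging was tested on simulated data. Covered bases, percentiles and flanks were computed per list. Named regions are the 10 members with the highest smallest percentile, the 5 with the most iPSC-covered bases, the 5 widest, the 5 with the lowest smallest score, and the 5 windows of 1 Mb with the most members, ties included. The members, classes and alternatives were chosen with earlier results of these data known. Figures were drawn with matplotlib 3.10.9.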

Additional observations from a re-analysis of the deposited data

How the results depend on the processing

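The number of members depended on how presence was called. It was 679 when a list had to cover at least 50% of a region, 488 with scores of at least 100, 1262 with equal numbers of peaks per list (the 54938 best) and 3448 when D3 and D5 were not required. With a score of at least 100, 291 of the 488 overlapped a member, since MEF peaks were lost too; with equal numbers 1048 of 1262 did. With peaks within 1 kb merged 1610 of 2412 did, 66.7%, and with peaks of 500 bp 1866 of 2090. The other settings, including leaving any single intermediate list out of the rule and a 1-bp stretch common to all 7 lists, gave 1785 to 3016. Those 7 alternatives and all alternatives for cover and flanks were chosen after seeing the data. Median width was 2862 bp with peaks within 1 kb merged and 870 bp with peaks of 500 bp.

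With scores of at least 100, the chromosome shares were 9.84% on 2, 8.40% on 12, 0.410% on 13, 0.820% on 16 and 0% on X, where equal numbers also gave 0%. The differences of chromosomes 3 and 12 from the iPSC list were not recomputed. Median percentiles from the mean score of a region's peaks were 69.4, 81.3 and 76.4 with OySyNyK, 58.8, 76.9 and 80.4 with OSNK and 57.6 in iPSC. With scores of at least 100 they were 77.3, 87.9 and 81.9 with OySyNyK, 63.8 at OSNK D1, 82.9 at OSNK D5 and 55.3 in iPSC. With equal numbers they were 82.5 at OySyNyK D5, 57.9 at OSNK D1 and 81.6 at OSNK D3.

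Members with more cover with OySyNyK than with OSNK made up 58.4%, 30.5% and 55.7% at D1, D3 and D5 with scores of at least 100, against 38.8%, 18.2% and 47.5% of all regions in both lists. With equal numbers they made up 53.2%, 24.2% and 46.4%, against 38.2%, 18.3% and 45.7% of all regions, so that members at D5 were close to the rest. Members with more cover at D5 than at D1 made up 68.0% with OySyNyK and 71.3% with OSNK with scores of at least 100, and 60.8% and 65.5% with equal numbers, against 38.2% to 48.0% of all regions. The ratio of iPSC flank cover, members to intermediate-only regions, was 3.65 with scores of at least 100 and 2.21 otherwise. The cause of these differences was not tested. The planned shares near genes and of motifs were not run, for want of a genome of the lists' build. No paired analysis was possible because each group had 1 library and so no replicate numbers to pair; the pairs of methods by day are given in the report without a test.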
